A study of Mus musculus with 2 samples.

Results

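Extracellular nucleotides were followed through 7 genes of the dorsal root ganglion (DRG) immune cells: the receptors P2rx4, P2rx7, P2ry6, P2ry14 and Adora3 and the ectonucleotidases Entpd1 and Nt5e. The 7 were taken by name from the 16819 gene symbols of the deposited matrix, and all 7 had unique molecular identifiers (UMIs, counts of captured transcripts). Total UMIs were 3860 for P2ry6, 2099 for P2rx4, 1639 for Entpd1, 601 for P2rx7, 287 for P2ry14, 109 for Nt5e and 24 for Adora3.

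Injured and active neurons, glia and immune cells release ATP and UDP, which act as danger signals on their neighbours. P2X receptors are ion channels that ATP opens, whereas P2Y receptors are G protein-coupled receptors for ATP, ADP, UTP, UDP or UDP-sugars. On the cell surface, ENTPD1 (CD39) cuts ATP and ADP down to AMP, and NT5E (CD73) turns AMP into adenosine, the ligand of ADORA3. In microglia, the macrophages of the spinal cord and brain, P2RX4, P2RX7, P2RY6 and P2RY12 are the best-known members of this system and are studied in pain after nerve injury.

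Cells were sorted as CD45+DAPI- (living leukocytes) from the pooled cervical, thoracic and lumbar DRGs of naive WT BALB/cAnNRj mice, 3 male and 3 female, marked by hashtag antibodies and run together on a single lane of a droplet 3′ assay. The deposited gene expression matrix held 2668 cells with 23403638 UMIs (median 8283.5 UMIs per cell), all from the 3 male mice (mouse 1, 2 and 3). A further 1073 cells of the larger deposited matrix belonged to the 3 female mice and were kept as separate replicates. No treated or injured group was analysed here, so every comparison is between cells of untreated mice, and 1 lane means that lane effects cannot be told apart from the rest.

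Classes were gated per cell on marker genes that include none of the 7. Macrophages were cells with C1qa, C1qb and C1qc (complement C1q) at 0.5% or more of UMIs, and there were 1477, or 55.4% of cells. Only 11 cells had a C1q share from 0.4% to 0.6%, the region of the threshold. The other gates gave 129 monocytes, 101 dendritic cells (DCs), 550 neutrophils, 162 B cells and 102 T cells, while 24 cells passed more than 1 gate and 123 passed none. Markers that the gates had not used followed the names: Cx3cr1, Adgre1, Mrc1, Fcgr1, Mertk, Trem2 and Cd68 together made up 0.344% of macrophage UMIs and at most 0.0588% in any other class. The monocyte check genes (Plac8, Ms4a4c, Ifitm6, Hp, Gm9733) did not separate monocytes from neutrophils, at 0.438% and 0.436% of UMIs. Macrophages were divided by Fcrls, an Fc receptor-like gene of microglia and resident macrophages, and Ccr2, the chemokine receptor of monocytes, into 674 Fcrls+Ccr2- cells, 581 with both, 156 Ccr2+Fcrls- cells and 66 with neither, where + means at least 1 UMI.

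Positions are those of GRCm38 (mm10) with GENCODE M21. P2rx7 (chr5:122643911-122691432) and P2rx4 (chr5:122707544-122729738) lie head to tail on the plus strand with 16111 bases between them. P2ry14 (chr3:59113855-59153618) shares the minus strand with P2ry13 and P2ry12, the ADP receptors, and all 3 sit inside Med12l on the opposite strand. P2ry6 lies on chr7:100937630-100974649 (minus strand), Entpd1 on chr19:40612366-40741602 and Nt5e on chr9:88327197-88372092 (both plus strand). Adora3 (chr3:105870858-105908926, plus strand) overlaps Tmigd3 on the same strand, so its few UMIs are uncertain. Tmigd3 itself had 4 UMIs. Mir8115 lies within P2rx7, and AC166063.1, Gm16027 and Gm8783 overlap Entpd1, on the same strand, and these were not analysed here. Gm44545 overlaps P2ry6 on the opposite strand.

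The neighbours P2rx7 and P2rx4 shared their leading class of cells, and P2ry14 and P2ry12 had different ones, so promoter windows of these 4 genes are shown. Each window runs from 250 bases before to 50 bases after a RefSeq transcript start on GRCm38.p6, 5′ to 3′ on the gene's strand. Capitals mark AGGAAGT or its other-strand form ACTTCCT, a core of the motif of PU.1, the transcription factor of myeloid cells. P2rx7 has a pair of starts in the table, both shown, and P2ry14 has 4, of which the most upstream is shown.
P2rx7, chr5:122643677-122643976, plus strand: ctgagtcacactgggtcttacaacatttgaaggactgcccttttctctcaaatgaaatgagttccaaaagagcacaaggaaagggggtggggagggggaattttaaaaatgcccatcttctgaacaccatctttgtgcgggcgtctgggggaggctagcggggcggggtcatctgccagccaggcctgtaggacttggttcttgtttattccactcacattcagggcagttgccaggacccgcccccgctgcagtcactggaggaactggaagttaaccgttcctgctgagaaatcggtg
P2rx7, chr5:122650133-122650432, plus strand: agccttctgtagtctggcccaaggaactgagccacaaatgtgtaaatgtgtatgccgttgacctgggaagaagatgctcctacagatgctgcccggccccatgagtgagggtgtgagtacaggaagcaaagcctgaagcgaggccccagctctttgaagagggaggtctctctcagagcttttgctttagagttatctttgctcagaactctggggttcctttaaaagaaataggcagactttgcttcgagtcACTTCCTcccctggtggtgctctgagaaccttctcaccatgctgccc
P2rx4, chr5:122707294-122707593, plus strand: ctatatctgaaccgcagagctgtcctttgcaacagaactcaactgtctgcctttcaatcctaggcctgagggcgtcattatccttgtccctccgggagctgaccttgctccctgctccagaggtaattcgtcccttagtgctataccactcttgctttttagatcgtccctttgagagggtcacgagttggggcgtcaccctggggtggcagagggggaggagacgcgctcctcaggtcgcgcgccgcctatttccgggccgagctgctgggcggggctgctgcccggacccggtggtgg
P2ry14, chr3:59153443-59153742, minus strand: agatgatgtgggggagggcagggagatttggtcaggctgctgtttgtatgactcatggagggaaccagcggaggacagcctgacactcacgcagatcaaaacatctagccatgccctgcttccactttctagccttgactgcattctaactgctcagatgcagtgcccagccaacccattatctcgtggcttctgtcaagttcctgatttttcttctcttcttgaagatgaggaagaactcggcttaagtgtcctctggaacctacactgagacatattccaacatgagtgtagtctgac
P2ry12, chr3:59262936-59263235, minus strand: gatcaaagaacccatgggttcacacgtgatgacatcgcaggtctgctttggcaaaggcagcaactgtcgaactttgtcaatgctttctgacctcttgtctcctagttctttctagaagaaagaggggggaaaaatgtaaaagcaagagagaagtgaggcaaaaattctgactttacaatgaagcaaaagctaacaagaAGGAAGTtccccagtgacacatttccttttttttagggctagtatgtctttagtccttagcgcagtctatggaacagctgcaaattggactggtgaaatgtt
Of 13 windows read for 8 genes of the system, 3 held the 7 letters (P2ry12, Adora3 and the second P2rx7 start), beside 3072 of all 32851 mouse windows (9.35%). A match describes these letters alone, and 3′ counts do not show which start was used. Of the 7 genes, 6 had a window and P2ry6 had none.

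Levels are given as CPM, the UMIs of a gene per 1000000 UMIs of all cells of a class in 1 mouse, and the spread is the SD over the 3 male mice. Differences between classes were tested on the summed UMIs with edgeR's quasi-likelihood test, as log2 fold changes with their SE and p-values adjusted by Benjamini-Hochberg over all genes tested. The macrophage sums held 1655163, 3877463 and 7790955 UMIs in mouse 1, 2 and 3, whereas T cell sums held 193147, 104559 and 248672, so a single UMI in T cells of mouse 2 was worth 9.56 CPM.

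P2rx4, an ATP-gated channel that desensitizes slowly and cycles through lysosomes, was highest in macrophages. Its macrophage levels were 129, 153 and 134 CPM in mouse 1, 2 and 3 (139 ± 12.6, SD, n = 3). DCs had 46.7, 54.5 and 56.3 CPM and monocytes 30.9, 30.6 and 42.4 CPM. The 3 groups did not overlap, with macrophages above DCs and DCs above monocytes in every mouse. T cells (23.4 ± 6.6 CPM) and B cells (19.5 ± 3.1 CPM) overlapped each other, and neutrophils were lowest at 3.37, 3.18 and 4.55 CPM. Macrophages were higher than each of the 5 other classes, by a log2 fold of 1.44 ± 0.18 over DCs (adjusted p = 3.26e-07), 2.28 ± 0.19 over monocytes (2.67e-10), 3.06 ± 0.27 over T cells, 3.45 ± 0.25 over B cells and 4.42 ± 0.23 over neutrophils (edgeR, SE). At least 1 P2rx4 UMI was found in 65.6% of macrophages (exact 95% interval 63.1–68.0%) and in 3.27% of neutrophils, at median depths of 8617 and 6426.5 UMIs. With each cell thinned to 2000 UMIs, the shares were 24.6% and 1.35%. As a measure of free RNA, the C1q genes were at 0.679% of their macrophage level in neutrophils, 0.695% in monocytes, 0.742% in DCs, 0.904% in T cells and 1.06% in B cells, although the gates capped them there. P2rx4 was at 2.93% of its macrophage level in neutrophils and at 13.9% or more in the other classes.

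P2rx7, the ATP-gated channel that needs high ATP and drives NLRP3 inflammasome assembly, also peaked in macrophages, and T cells came next. Macrophage levels were 35.0, 45.6 and 39.8 CPM (40.2 ± 5.3). T cells had 10.4, 19.1 and 32.2 CPM, counted from only 2, 2 and 8 UMIs. The ranges of both classes were apart, with the highest T cell value just under the lowest macrophage value. DCs had 3.34, 7.79 and 11.5 CPM, monocytes 0, 4.38 and 8.92 CPM, and B cells and neutrophils at most 3.82 CPM in any mouse. From T cells downwards, each class overlapped the next. The log2 fold of macrophages over T cells was 1.40 ± 0.43 (adjusted p = 0.00922), and it did not pass without mouse 1 (1.07, adjusted p = 0.0687) or without mouse 2 (1.18, adjusted p = 0.0941; edgeR). Over DCs it was 2.28 ± 0.40 (5.93e-05), over monocytes 3.13 ± 0.42, over neutrophils 5.17 ± 0.50 and over B cells 5.43 ± 0.71, the last against a single B cell UMI. P2rx7 reached the filter on low counts in all 3 mice only in macrophages, so these tests favoured a difference toward macrophages. P2rx7 was seen in 27.9% of macrophages (7.94% after thinning) and in 0.545% of neutrophils (0.193% after thinning). The neutrophil value rests on 3 UMIs, at 1.57% of the macrophage level beside 0.679% for C1q, and is not read as expression.

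P2ry6, the UDP receptor that prompts phagocytosis in microglia, had 3689 of its 3860 UMIs in macrophages. Levels there were 280, 319 and 255 CPM (285 ± 32.0). DCs had 43.4, 59.7 and 50.5 CPM and monocytes 25.8, 52.5 and 41.3 CPM. Macrophages thus lay far above both classes in every mouse, and DCs and monocytes overlapped. T cells (2 UMIs in all) and neutrophils (8 UMIs in 550 cells) were near the floor, and none of 162 B cells had a UMI, which allows a share of cells with a UMI of up to 1.85% (floor of 3 cells). The log2 fold of macrophages was 2.53 ± 0.21 over DCs (adjusted p = 1.08e-09), 3.24 ± 0.22 over monocytes and 6.67 ± 0.31 over neutrophils (edgeR). Against B cells, macrophages were at least 71.8-fold higher in CPM and at least 109-fold on the scaled library sizes (TMM) of the test, with the floor of 3 counts over the summed B cells of the 3 mice. The ratio to T cells was 75.6 (exact 95% interval 20.9–625, counting error only). P2ry6 was detected in 86.0% of macrophages and in 40.7% after thinning, while neutrophils had 1.27% and 0.580%. The neutrophil level, at 0.619% of that in macrophages, was no higher than that of C1q (0.679%, capped by the gates) and is not read as expression. Its source was not tested.

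P2ry14, the receptor for UDP-glucose, departed from P2rx4, P2rx7 and P2ry6 because DCs and not macrophages led. DC levels were 50.04, 57.1 and 93.8 CPM (67.0 ± 23.5). Macrophages had 4.83, 5.93 and 9.50 CPM, T cells 5.18, 9.56 and 8.04 CPM and monocytes 0, 8.76 and 2.23 CPM. Every DC sum exceeded every sum of any other class, and the other classes overlapped their neighbours in the order of levels. None of the 550 neutrophils had a UMI, which allows a share of cells with a UMI of up to 0.545% (floor of 3 cells). P2ry14 was lower in macrophages than in DCs by a log2 fold of -3.19 ± 0.33 (adjusted p = 3.76e-08, edgeR). The gene reached the filter on low counts in all 3 mice only in DCs, so this test favoured a difference toward DCs. The difference from monocytes was 1.77 ± 0.71 (adjusted p = 0.0513), resting on 4 monocyte UMIs, and with the mouse as a block it was 1.79 (adjusted p = 0.0346). Against B cells it was 2.97 ± 1.07 (adjusted p = 0.0213) from a single B cell UMI, and it did not pass without mouse 1 (2.59, adjusted p = 0.0659) or mouse 3 (1.71, adjusted p = 0.323). Macrophages were at least 7.62-fold above neutrophils on the scaled library sizes of the test and 12.3-fold in CPM (floor of 3 counts over the class), and the difference from T cells was 0.50 ± 0.80 (adjusted p = 0.648). P2ry14 was seen in 36.6% of DCs (9.90% after thinning) and in 6.50% of macrophages (1.10% after thinning).

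Adora3, the adenosine A3 receptor known from mast cells and eosinophils, was detected rarely. DCs held 14 of its 24 UMIs, at 6.67, 12.98 and 10.1 CPM (9.92 ± 3.16). Macrophages had 4 UMIs in 1477 cells (0.604, 0 and 0.385 CPM), T cells had 0, and the other classes had from 1 to 3. The 3 DC sums were above all others. Adora3 did not pass the filter on low counts, and the ratio of pooled macrophages to pooled DCs was 0.0296 (exact 95% interval 0.00708–0.0941, counting error only). Its share of cells was 8.91% in DCs and 0.271% in macrophages, at median depths of 13933 and 8617 UMIs.

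Entpd1, which degrades ATP and ADP, was broader. Macrophage levels were 89.4, 100.1 and 92.5 CPM (94.0 ± 5.5). DCs had 56.7, 75.3 and 37.5 CPM and neutrophils 37.1, 63.6 and 46.9 CPM. Both lay below macrophages in every mouse and overlapped each other, and monocytes (20.1 ± 6.8 CPM), T cells and B cells were lower. The neutrophil value depends on the scale, because the neutrophil gate genes alone were 46.2% of neutrophil UMIs. On the TMM scale of the test (factors from 0.524 to 0.610 in neutrophils and from 0.877 to 0.927 in macrophages), neutrophils had 62.9, 107 and 91.3 CPM and macrophages 105, 118 and 103 CPM, which overlap. There the log2 fold of macrophages over neutrophils was 0.35 ± 0.21 (adjusted p = 0.141, edgeR). Macrophages were higher than DCs by 0.87 ± 0.25 (adjusted p = 0.00761), which did not pass without mouse 3 (0.64, adjusted p = 0.160). They were higher than monocytes by 2.61 ± 0.30 (8.48e-08), T cells by 3.59 ± 0.46 and B cells by 4.46 ± 0.45. A UMI was present in 52.4% of macrophages, 30.0% of neutrophils and 3.09% of B cells. After thinning to equal depth, macrophages (18.0%) and neutrophils (17.0%) came close together.

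Nt5e, which completes the path to adenosine, was at 0 or near it in macrophages. Neutrophils had 9.28, 11.1 and 20.3 CPM (13.6 ± 5.9), from 76 of its 109 UMIs. T cells had 5.18, 9.56 and 16.1 CPM from 6 UMIs. In CPM, the neutrophil and T cell ranges overlapped and stood above the rest. This overlap depends on the scale, with TMM factors from 0.524 to 0.610 in neutrophils and from 1.225 to 1.369 in T cells. On that scale neutrophils would stand higher against T cells, but Nt5e levels were not computed there. Macrophages had 0, 1 and 3 UMIs in mouse 1, 2 and 3 (0.214 ± 0.196 CPM), monocytes 2 in all, and DCs and B cells none. The ratio of pooled macrophages to pooled neutrophils was 0.0184 (exact 95% interval 0.0049–0.0492) and to pooled T cells 0.0273 (0.00567–0.115), covering counting error only. Nt5e failed the filter on low counts. When that filter was dropped, macrophages were lower than neutrophils (log2 fold -5.96, adjusted p = 1.84e-27) and T cells (-4.24, adjusted p = 0.0002115; edgeR). Transcripts of both enzymes were seen together in 19 of 550 neutrophils (165 had Entpd1 and 62 had Nt5e), in 3 of 1477 macrophages and in none of the T cells.

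**Figure D1:**
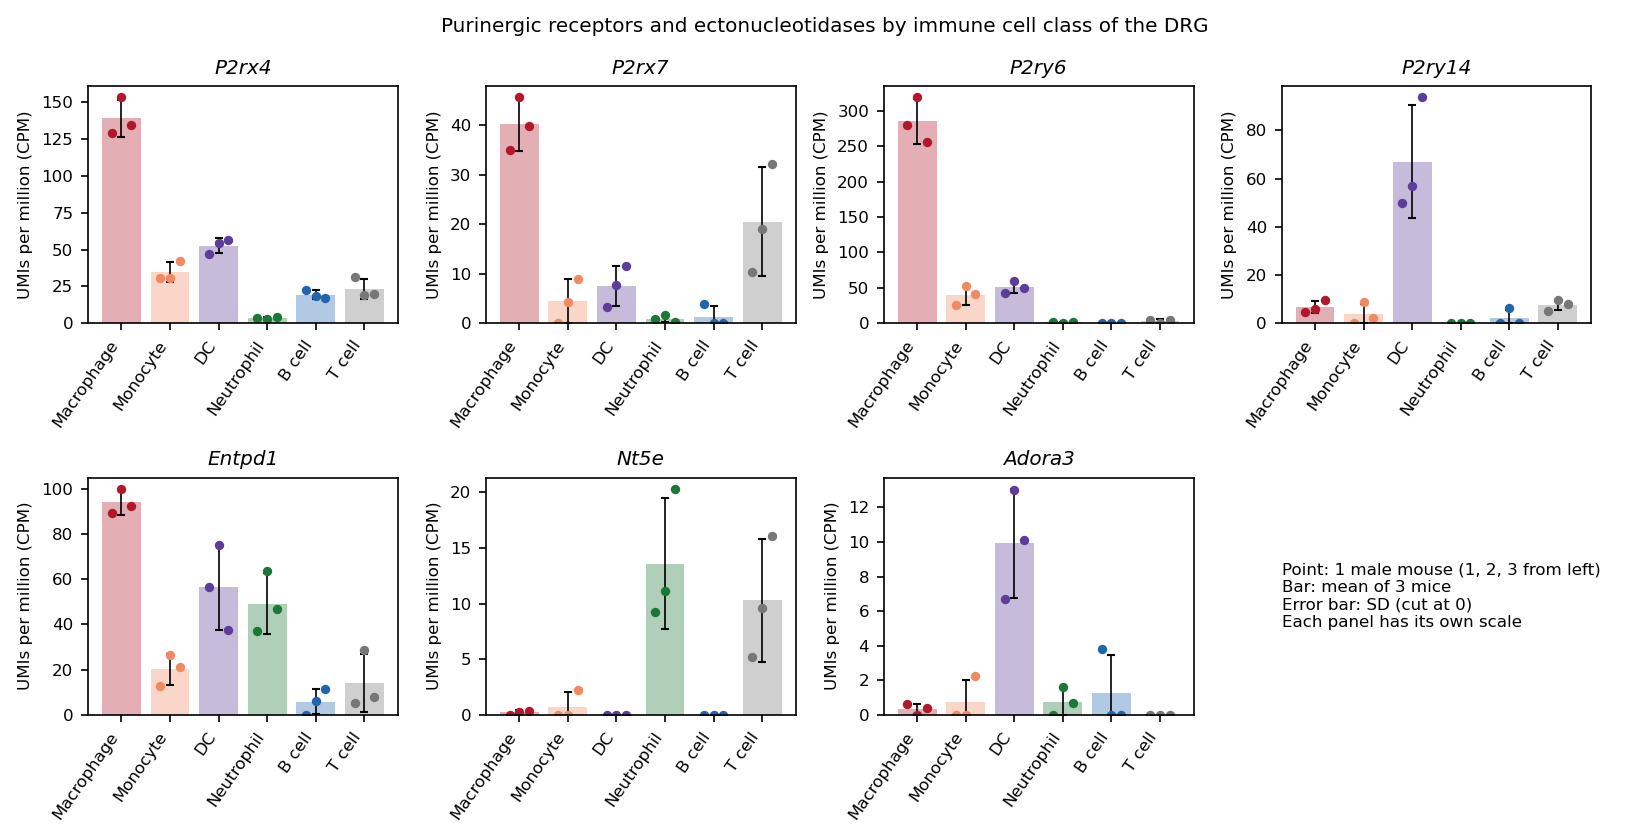
Levels of the 7 genes in CPM (each panel on its own linear scale) in 6 immune cell classes, with 1 point per male mouse, bars for the mean and error bars for the SD. In CPM by whole class, P2rx4, P2rx7, P2ry6 and Entpd1 are highest in macrophages, although Entpd1 overlaps neutrophils on the TMM scale. Also in CPM, P2ry14 and Adora3 are highest in DCs, and Nt5e in neutrophils and T cells.

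Of the 7 genes, 5 passed the filter on low counts in the fit of all 6 classes, which tested 6466 genes. A gene can pass this filter through 1 class alone. P2rx7 reached it in all 3 mice only in macrophages, and P2ry14 only in DCs. The counts and medians below include both genes, for which the filter favoured a difference toward that class. The 7 genes were also chosen with earlier results of these data known. The counts and medians are therefore not read as an excess over all genes. Macrophages were higher for 4 of the 5 against monocytes, where 20% of all tested genes were higher and 38.2% passed in either direction. Against DCs, 4 were higher (17.1% of all genes) and P2ry14 was lower (15.8% of all genes, 32.9% in either direction). Against neutrophils 4 were higher (35.7% of all genes, 67.8% in either direction), against B cells all 5 (31.5%, 56.8%) and against T cells 4 (26%, 45.8%). The 5 contrasts share the macrophage sums and are not independent. The median log2 fold of the 5 was 2.61 against monocytes and 1.44 against DCs, beside 0.02 over all genes tested in each. Against neutrophils, B cells and T cells the medians were 5.17, 4.46 and 3.06, beside 0.09, 0.08 and 0.04 over all genes.

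**Figure D2:**
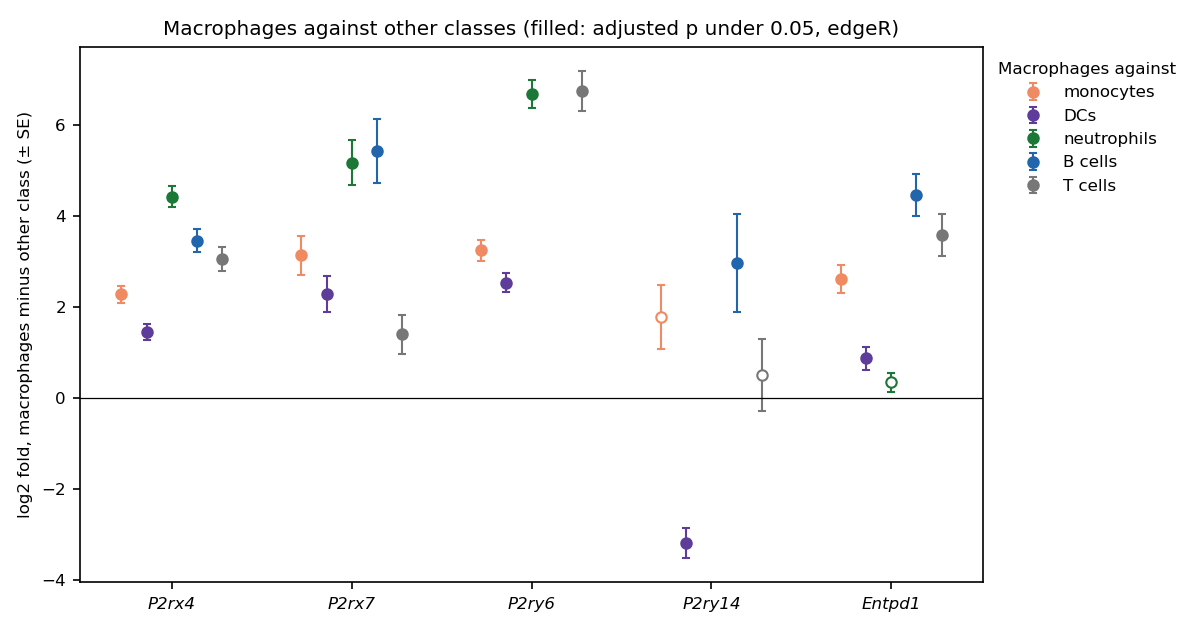
Log2 fold of macrophages over each other class (y axis, points with SE from edgeR) for the 5 genes tested, filled where the adjusted p is under 0.05. P2ry14 against DCs is the only fold below 0 here, at -3.19, and P2ry6 against B cells and P2ry14 against neutrophils are not drawn because the other class had no UMI.

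The rest of the purinergic system was read from a list of other receptors, enzymes, transporters and P2rx7 partners, of which 37 genes were in the matrix and 15 could be tested between classes. The same filter applied, which a gene can pass through 1 class where it is high. This list too was chosen with earlier results of these data known, so the numbers are not read as an excess. Against monocytes, 8 of the 15 were higher in macrophages and 2 lower, where 20% and 18.2% of all genes tested were. The numbers were 9 and 1 against DCs (17.1% and 15.8% of all genes), 12 and 0 against neutrophils (35.7% and 32.1%), 11 and 2 against B cells (31.5% and 25.2%), and 10 and 2 against T cells (26% and 19.9%). P2ry12 and P2ry13 followed macrophages, at 44.1 ± 5.2 and 29.3 ± 3.9 CPM, with no more than 4 and 11 UMIs in any other class. Their neighbour P2ry14 did not share this order, and neither did P2ry1, another ADP receptor, with 14.1 ± 6.8 CPM in monocytes and 0.888 ± 0.573 in macrophages, or P2ry2, a receptor for ATP and UTP, with 3.51 ± 2.31 CPM in neutrophils and 0.760 ± 0.472 in macrophages. P2ry10, a receptor for lysophosphatidylserine despite its name, had 109 ± 31.0 CPM in DCs, 98.7 ± 33.1 in T cells and 32.5 ± 16.4 in B cells, but 6 UMIs in macrophages. Adenosine receptors other than Adora3 were highest outside macrophages, Adora2a in T cells (30.4 ± 8.9 CPM) and Adora2b in monocytes (34.3 ± 15.1 CPM), against 0.416 ± 0.175 and 2.15 ± 1.72 CPM in macrophages. Nlrp3, the inflammasome sensor downstream of P2RX7, was higher in macrophages than in monocytes (log2 fold 1.68 ± 0.24, adjusted p = 2.23e-06) and DCs (3.05 ± 0.29, adjusted p = 3.45e-09; edgeR). It was picked after the values were seen and does not stand for all P2rx7 partners. Of the 6 tested, 3 were higher in macrophages and 1 lower against monocytes (20% and 18.2% of all genes). Against DCs, 3 were higher and 0 lower (17.1% and 15.8%).

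Within macrophages, the ATP-gated channels differed between the subsets, which were divided per cell by Fcrls and Ccr2 UMIs and are not the study's clusters. P2rx7 was at 43.8, 53.8 and 51.1 CPM in Fcrls+Ccr2- cells and at 21.2, 19.7 and 23.3 CPM in Ccr2+Fcrls- cells. P2rx4 was at 148, 189 and 153 CPM and at 111, 115 and 82.2 CPM. The subsets did not overlap for either gene, and the share of all genes with separate ranges was not counted. The log2 fold was 1.09 ± 0.25 for P2rx7 (adjusted p = 0.0087) and 0.63 ± 0.19 for P2rx4 (adjusted p = 0.0444, edgeR). They were 2 of 4 genes tested (3 of the 7 failed the filter), and 4.01% of all 5807 genes tested were higher in Fcrls+Ccr2- cells (9.47% passed in either direction). The median log2 fold of the 4 was 0.53, beside 0.01 over all genes. As the genes were chosen with earlier results known, this is not read as an excess.

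These calls rested on few mice and few Ccr2+Fcrls- cells, with 4, 7 and 17 P2rx7 UMIs in that subset. P2rx7 held without mouse 1 (1.13, adjusted p = 0.0356) but not without mouse 2 (0.98, adjusted p = 0.107) or mouse 3 (1.24, adjusted p = 0.0734). P2rx4 did not pass without mouse 1 (0.73, adjusted p = 0.0956), mouse 2 (0.63, adjusted p = 0.153) or mouse 3 (0.52, adjusted p = 0.212), and neither gene passed with DESeq2 (adjusted p = 0.0726 and 0.135). At an equal depth of 2000 UMIs per cell, P2rx4 passed (0.87, adjusted p = 0.0319), and P2rx7 had too few UMIs to be tested.

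Entpd1 also had separate ranges, at 104, 115 and 110 CPM in Fcrls+Ccr2- and 89.9, 50.6 and 86.3 CPM in Ccr2+Fcrls- cells. Its log2 fold of 0.43 ± 0.19 did not pass (adjusted p = 0.207, edgeR), and the share of all genes with separate ranges was not counted. P2ry6 had 321, 348 and 271 CPM against 212, 276 and 225 CPM, which overlap, and its log2 fold of 0.28 ± 0.16 did not pass either (adjusted p = 0.357). P2ry14 ran the other way with 4.38, 5.18 and 7.03 CPM against 5.29, 5.63 and 19.2 CPM, from 36 and 17 UMIs, and failed the filter on low counts. Nt5e had 2 and 0 UMIs and Adora3 3 and 0.

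Macrophages with UMIs of both Fcrls and Ccr2 had P2rx7 levels of 25.8, 42.2 and 33.1 CPM, which lie between those of the other subsets in each mouse. For P2rx4 they had 119, 114 and 127 CPM, and in mouse 2 this was just under the Ccr2+Fcrls- value. Of the 13 other purinergic genes tested between the subsets, Il1b, the cytokine released after P2RX7 activation, was the 1 that passed, where 9.47% of all genes tested did (5.46% lower). It was lower in Fcrls+Ccr2- cells by a log2 fold of -0.44 ± 0.11 (adjusted p = 0.0165, edgeR). In female mice, 11 genes of this list were tested between the subsets and 0 passed, where 6.83% of all genes tested did.

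Other properties of the libraries moved with the subsets. The digestion-response genes Fos, Jun, Atf3 and Rhob (4 of 4 detected) made up from 0.610% to 1.10% of UMIs in Fcrls+Ccr2- cells and from 0.349% to 0.353% in Ccr2+Fcrls- cells. The glia genes Fabp7, Sox10 and Apod (3 of 3 detected in both) ranged from 0.0127% to 0.0326% and from 0.00476% to 0.0117%. Fibroblast genes ranged from 0.00585% to 0.0163% in Fcrls+Ccr2- cells (5 of 5 detected) and from 0.00317% to 0.00563% in Ccr2+Fcrls- cells (4 of 5). The macrophage check genes were also higher in the Fcrls+Ccr2- subset, at 0.376–0.406% against 0.227–0.260%, and the part of these in the differences of P2rx4 and P2rx7 was not tested.

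Female mice gave 96, 77 and 124 further Fcrls+Ccr2- macrophages and 19, 17 and 19 further Ccr2+Fcrls- macrophages in mouse 1, 2 and 3. P2rx7 was at 46.0, 42.4 and 43.3 CPM against 13.8, 37.3 and 15.5 CPM in female mouse 1, 2 and 3. P2rx4 was at 142, 197 and 145 CPM against 68.9, 158 and 30.9 CPM. Within each female mouse the Fcrls+Ccr2- value was the higher, although the P2rx4 ranges of both subsets overlapped. The Ccr2+Fcrls- values rested on only 2, 4 and 2 UMIs for P2rx7 and on 10, 17 and 4 for P2rx4. Neither log2 fold passed in females alone, at 1.003 ± 0.467 for P2rx7 (adjusted p = 0.263) and 0.91 ± 0.34 for P2rx4 (adjusted p = 0.130, edgeR), where 6.83% of 4039 genes did. P2rx7 reached the filter on low counts in all 3 female mice only in Fcrls+Ccr2- cells, whereas P2rx4 reached it in both subsets. For P2rx7 the filter thus favoured a difference toward Fcrls+Ccr2- cells. With the mouse as a block, P2rx4 passed (0.94, adjusted p = 0.0389). Over all 6 mice, P2rx4, P2rx7 and Entpd1 were each higher in the Fcrls+Ccr2- subset in 6 of 6, P2ry6 in 5 of 6 and P2ry14 in 0 of 6. The 3 males among them are the mice of the subset test above. The share of all genes with the same direction in 6 of 6 was not counted. The P2ry14 direction is uncertain, since Ccr2+Fcrls- cells held 1, 2 and 14 of its UMIs in males and 3, 2 and 2 in females.

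The subset difference was not shown to differ by sex. The interaction term passed for 0 of 6297 genes (259 had an unadjusted p under 0.05, edgeR), and its log2 value was 0.30 ± 0.41 for P2rx4 and -0.06 ± 0.54 for P2rx7. Among all macrophages, 7 of 8115 genes (0.0863%) passed between females and males and none of the purinergic genes did. Macrophage levels were 136 ± 27.7 CPM in females for P2rx4, 41.7 ± 1.0 for P2rx7, 302 ± 15.0 for P2ry6 and 98.2 ± 8.4 for Entpd1 (n = 3), all overlapping those of the males. Of macrophages, DCs and neutrophils, the classes whose levels were taken in females, the same one was highest for each of the 7 genes as in males, with P2ry14 at 64.3 ± 35.6 CPM in female DCs and at 0 in female neutrophils, and Nt5e at 14.04 ± 11.5 CPM in female neutrophils and at 0 in female macrophages.

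**Figure D3:**
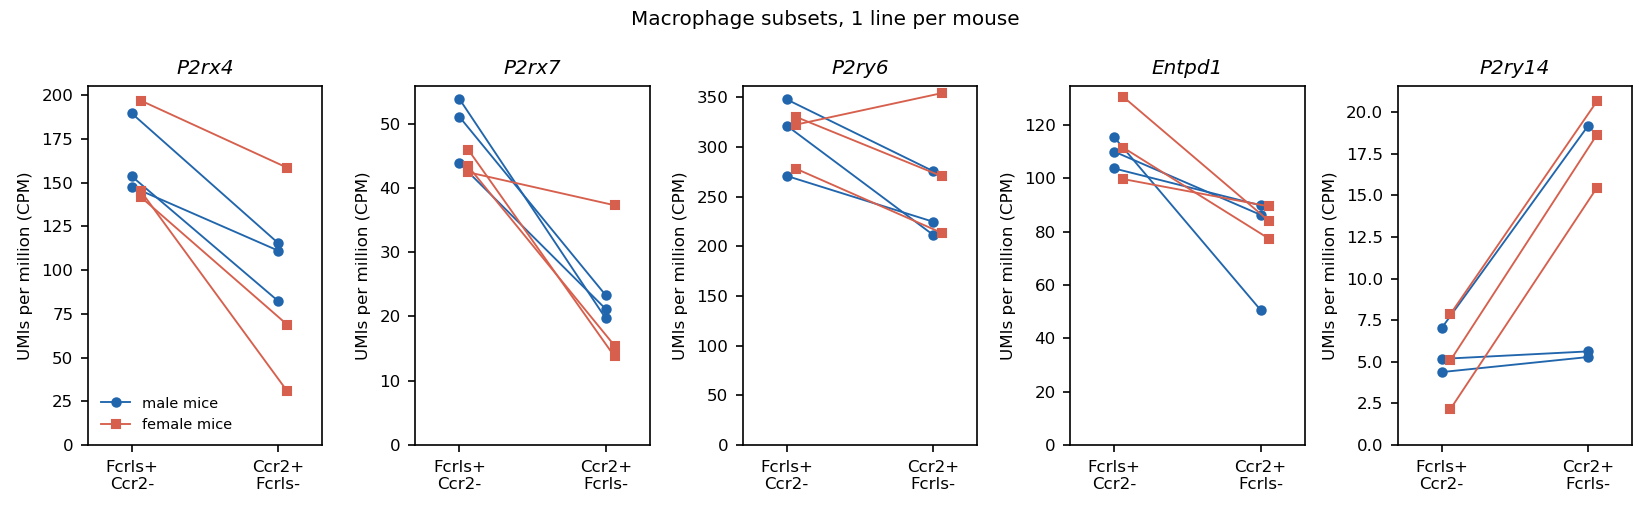
Levels in CPM (linear scale from 0) of 5 genes in Fcrls+Ccr2- and Ccr2+Fcrls- macrophages, with 1 line per mouse, circles for 3 male and squares for 3 female mice. Lines fall from Fcrls+Ccr2- to Ccr2+Fcrls- cells in 6 of 6 mice for P2rx4, P2rx7 and Entpd1, and rise in 6 of 6 for P2ry14. The share of all genes with the same direction in 6 of 6 was not counted. The P2ry14 points of Ccr2+Fcrls- cells rest on 1, 2 and 14 UMIs in males and 3, 2 and 2 in females.

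Ccr2+Fcrls- macrophages still differed from monocytes, which also carry Ccr2. P2ry6 in this subset (212, 276 and 225 CPM) was above monocytes (25.8, 52.5 and 41.3 CPM) in every mouse, by a log2 fold of 3.02 ± 0.24 (adjusted p = 2.78e-08). Entpd1 was higher by 2.33 ± 0.32 (2.10e-05) and P2rx4 by 1.84 ± 0.26 (3.34e-05, edgeR). All 3 genes that could be tested were higher, and the values of all 3 lay apart between the groups. The share of all genes that lay apart was not counted. Of the 4267 tested genes, 18.5% were higher and 33.8% passed in either direction. P2ry6 and Entpd1 reached the filter on low counts in all 3 mice only in Ccr2+Fcrls- macrophages, whereas P2rx4 reached it in monocytes too. For P2ry6 and Entpd1 the filter thus favoured a difference toward that subset, so the count of 3 is not read as an excess over 18.5%. This comparison uses the same Ccr2+Fcrls- sums as the one between subsets.

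Per cell, few of the 7 genes were seen together once depth was cut to 2000 UMIs, and the counts depend on that depth. At full depth (median 8617 UMIs), P2ry6 had a UMI in 86.0% of macrophages, P2rx4 in 65.6% and Entpd1 in 52.4%. In macrophages thinned to 2000 UMIs, 493 of 1449 had a UMI of none of the 7 genes, 629 had 1, 266 had 2 and 61 had 3. No macrophage had more at that depth.

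DCs and neutrophils were split further because P2ry14 and Entpd1 were uneven among them. These groups were made after the values had been seen and carry no test. The 40 DCs with at least 2 UMIs of Xcr1 and Clec9a, markers of conventional type 1 DCs, and none of Cd209a had P2ry14 levels of 98.0, 92.3 and 177 CPM (83 UMIs). The 43 DCs with at least 2 UMIs of Cd209a, a gene of type 2 and monocyte-derived DCs, and none of Xcr1 or Clec9a had 9.98, 6.77 and 0 CPM (3 UMIs). The other 18 had 215, 82.8 and 22.1 CPM (16 UMIs), from 2, 8 and 8 cells. P2ry14 was thus higher in the Xcr1 and Clec9a group than in the Cd209a group in each mouse. Against the other 18 DCs, that group was higher in mouse 2 and 3 but lower in mouse 1. Adora3 had too few UMIs to order these groups, with 2 in the Xcr1 and Clec9a group, 8 in the Cd209a group and 4 in the other 18 DCs. By mouse 1, 2 and 3, the Xcr1 and Clec9a group held 1, 0 and 1 of these and the Cd209a group 0, 2 and 6. Its level was thus higher in the Cd209a group than in the Xcr1 and Clec9a group in mouse 2 and 3 but lower in mouse 1.

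Neutrophils were ordered by their share of Ltf, Camp and Ngp, secondary granule genes that are on in immature cells and off in mature ones. Entpd1 was at 7.43, 11.9 and 10.5 CPM in the 199 cells with 5% or more, at 44.9, 49.5 and 43.9 CPM in the 65 cells from 1% to 5%, at 162, 147 and 73.2 CPM in the 83 cells from 0.1% to 1%, and at 141, 283 and 179 CPM in the 194 cells under 0.1%. A further 9 cells with primary granule genes (Mpo, Elane, Prtn3) had no Entpd1 UMI. Down to the third group, levels were higher at each step in every mouse, and in the last group they were higher again in mouse 2 and 3 but not in mouse 1. Median depth moved with this order, from 13211 UMIs per cell in the first group to 3093.5 in the last, and its part in the Entpd1 levels was not tested. Nt5e did not follow this order, with pooled levels of 10.9, 41.1, 26.5 and 16.3 CPM across the same 4 groups. Entpd1 in the last group lay above its level in all macrophages (89.4, 100.1 and 92.5 CPM) in each mouse. In the third group it did so in mouse 1 and 2 but not in mouse 3.

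**Figure D4:**
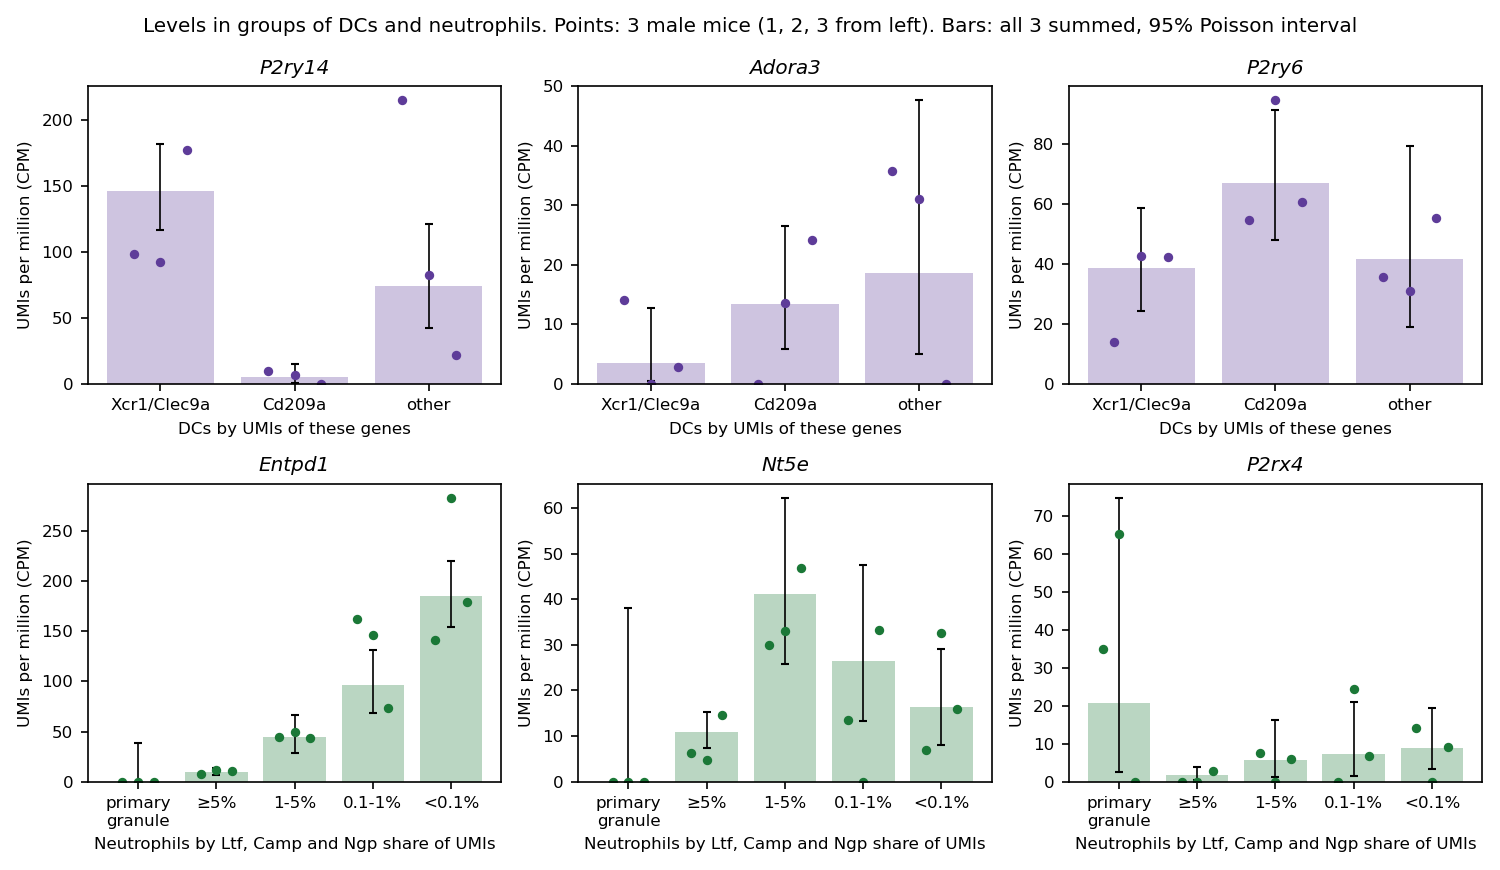
Levels in CPM (linear scales from 0) of 3 genes in DCs split by UMIs of Xcr1, Clec9a and Cd209a (top) and in neutrophils split by their share of Ltf, Camp and Ngp (bottom), with 1 point per male mouse, bars for all cells summed and exact 95% Poisson intervals. P2ry14 has 83 UMIs in the Xcr1 and Clec9a group, 3 in the Cd209a group and 16 in the other DCs. In mouse 1 its level is highest in the other DCs. Entpd1 is lowest in neutrophils with many granule transcripts.

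Genes most alike in pattern were found by Pearson correlation of log2(CPM + 1) over 24 sums (8 classes, with 3 macrophage subsets, in 3 mice) that share 1 lane, as a description only. Nearest to P2rx4 were Rgs10 (0.97), Runx1 and Bsg, to P2rx7 Ctla2b (0.91) and Lgals3bp, and to P2ry6 Axl (0.98), Aif1 and Cttnbp2nl. For P2ry14 they were Rtl8b (0.87), Fnbp1 and Commd8, and for Entpd1 Lpcat2 (0.93), Qsox1 and Basp1. Nt5e was nearest to Krt83 (0.95), Cd3d and Tesc, and Adora3 to Cacna1s (0.87), Gcsam and Cd207, both from few UMIs.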

How the data were processed

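The authors aligned the reads with Cell Ranger 3.1.0 (mm10) and deposited raw UMI counts, not normalized: a gene expression and hashtag matrix of 4395 barcodes of 1 lane, and a subset of 2668 cells, kept for more than 200 but fewer than 5000 genes and less than 5% of UMIs from mitochondria (Seurat). Counts shared by both matrices differed in 0 entries, and all 2668 barcodes were in both. HTODemux (Seurat 5.3.0) on all barcodes, then the filters (4111 barcodes), gave 3741 cells with 1 hashtag (269 doublets and 101 negatives dropped). The 2668 cells were those of the 3 male hashtags, each taken as a mouse, and 1073 were female. Scrublet (scanpy 1.11.5) marked 10 of the 2668.

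Counts were summed per mouse and class and tested with edgeR 4.0.16 (R 4.3.3, quasi-likelihood, TMM, filterByExpr, threshold 0.05), with DESeq2 1.42.0 for the subsets as an alternative. On simulated counts for the subset comparison (5807 genes), edgeR found 75.5% of genes given a log2 change of 1 and 100% of those given 2, while DESeq2 found 42.6% and 97.8%. False calls numbered 10 with edgeR and 3 with DESeq2. The simulated counts were drawn from the dispersions of the edgeR fit and were not paired by mouse. Sums of 1 mouse are paired by its hashtag. Their deviations from the group means correlated weakly in the subset fit (r = 0.05, 0.08 and 0.21 in mouse 1, 2 and 3), and the mouse as a block was an alternative. Intervals and floors cover counting error only.

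The 7 genes, the wider list and the gates were chosen with earlier results of these data known. The named genes were the 7, any gene of the wider list past the threshold between the subsets, and the 3 genes with the highest correlation to each of the 7, of which 1 is not reported here, and the glia list is given for 3 of its genes. P2ry1, P2ry2, P2ry10, P2ry12, P2ry13, Adora2a, Adora2b, Nlrp3 and the finer groups of cells were added after their values were seen. Names and positions are from GENCODE M21 and promoter windows from RefSeq (GRCm38.p6).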

Additional observations from a re-analysis of the deposited data

Results flagged for a closer look

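Cells that passed none of the gates (123 of 2668) enter no comparison, and 6 of the 7 genes had UMIs in them above the floor of 3 counts. P2rx4 had 61 UMIs there, P2rx7 17, P2ry6 20, P2ry14 71, Entpd1 32 and Nt5e 15, while Adora3 had 0.

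P2ry14 stood out among these, since the 71 UMIs were 24.7% of all its UMIs. Of these, 30 came from 10 cells with at least 5 UMIs of Siglech, a gene of plasmacytoid DCs, at 534, 1042 and 218 CPM in mouse 1, 2 and 3 (9, 9 and 12 UMIs). Another 29 came from 10 cells in which fibroblast genes reached 1% of UMIs, at 137, 141 and 234 CPM (4, 5 and 20 UMIs). Those cells also held 13 of the 15 Nt5e UMIs (86.6 CPM). In 9 of these 10 cells, Schwann and satellite glia genes reached 1% of UMIs too. The 9 cells held all 29 of these P2ry14 UMIs and 12 of the Nt5e UMIs, so these are mixed profiles. Both groups were formed after the values were seen, and their levels rest on 1 to 7 cells per mouse.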

How the results depend on the processing

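Of 380 alternative values for single genes, 350 kept their direction and side of the threshold, 13 no longer passed, 11 newly passed and 6 changed sign. Of 84 alternative counts of genes, 18 moved by over 1.5 times. Leaving out 1 mouse gave ranges of 0.52 to 0.73 (P2rx4) and 0.98 to 1.24 (P2rx7) between subsets, 0.64 to 1.10 for Entpd1 over DCs, 1.71 to 6.46 for P2ry14 over B cells, 1.07 to 2.13 for P2rx7 over T cells and 1.11 to 2.64 for P2ry14 over monocytes. DESeq2 gave 0.60 and 1.09 for P2rx4 and P2rx7 between subsets, and P2rx4 was 0.47 (adjusted p = 0.0777, edgeR) when the gene with more UMIs named the subset. P2ry14 over monocytes passed with the mouse as a replicate block (1.79), with RLE size factors (1.81), with no filter (1.77) and with C1q at 0.25% (1.81) or 1% (1.79). The block also moved P2rx4 in females (0.94) past the threshold and changed no other call. Females alone gave 0.61 to 1.45 for P2rx4 without 1 mouse. Over all alternatives in females its adjusted p ran from 0.0321 to 0.457 (edgeR), so the block was not the only setting that passed. With no filter, Nt5e was -5.96 against neutrophils and -4.24 against T cells and Adora3 -4.57 against DCs.

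Between females and males, where no gene of the 7 passed, signs changed without 1 mouse: P2rx4 went from -0.03 to 0.0607 (male 2), 0.0553 (female 1) or 0.04 (female 3), P2rx7 to -0.0029 and P2ry6 to -0.0086 (male 3), and P2ry14 to -0.10 (female 1). Their ranges were -0.19 to 0.06, -0.0029 to 0.16, -0.0086 to 0.20 and -0.10 to 0.53. Genes called between subsets (550) were 239 to 362 without 1 mouse, 345 when the gene with more UMIs named the subset and 158 at 2000 UMIs per cell. At that depth 756 were called against monocytes, 574 against DCs, 1584 against neutrophils, 1289 against B cells and 1096 against T cells, on fewer UMIs. Without 1 mouse, 1555 to 2223 were called against monocytes, 1373 to 2064 against DCs and 952 to 1401 for Ccr2+Fcrls- macrophages against monocytes, with the lowest of each without mouse 3. With no filter 6731 were called against neutrophils, in females 99 to 176 between subsets without 1 mouse, and 5 to 76 by sex, the 76 without male mouse 2. Thinned shares of macrophages were 24.6% (P2rx4), 7.94% (P2rx7), 40.7% (P2ry6), 1.10% (P2ry14) and 18.0% (Entpd1).

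The cause of these changes was not tested except where fewer UMIs, mice or genes entered. Leaving out a mouse leaves 2 sums per group. P2ry14, Nt5e and Adora3 failed the filter on low counts between subsets, so whether they differ there is left undecided at this depth.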
